A study of Rattus norvegicus with 12 samples.

Results

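The 10 genes described here form the core of macroautophagy, the pathway in which a cell wraps cytoplasm in a double membrane and delivers it to the lysosome. They were taken by symbol from the 30562 gene rows of the deposited table, each symbol had a single row, and all 10 passed the filter on low counts. Bulk RNA-seq had been made from primary wild-type rat oligodendrocyte precursor cells (OPCs), which were cultured from the cortex of Sprague-Dawley pups at postnatal day 1 or 2 and carried no engineered allele. Mild-hypo-OPCs (6 libraries) had grown at 5% FiO2, for which the labels give 6 hours and the methods 6 days. Standard OPCs (6 libraries) were the control cultures, and the published methods give no oxygen level for them. The published legend for this comparison gives 3 biological replicates per group, whereas 6 libraries per group carry replicate numbers, and no source used here says which libraries, if any, share a culture. Every n = 6 below counts libraries, and the p-values measure the spread between libraries, which may be technical, so they are too small if libraries share a culture.

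Autophagy runs in steps, and the members act in initiation, nucleation, conjugation and cargo binding. ULK1 is the kinase that starts the process, and Beclin 1 (Becn1) belongs to the lipid kinase complex that marks the site where the membrane grows. ATG7 and ATG5 act in the conjugation machinery that couples small ubiquitin-like proteins of the ATG8 family to that membrane. In this set the ATG8 family comprises the GABARAP branch (Gabarap, Gabarapl1, Gabarapl2) and the LC3 branch (Map1lc3a, Map1lc3b). p62 (Sqstm1) is a cargo receptor that binds ATG8 proteins and is itself degraded with its cargo. Transcript counts do not measure the flow of cargo through the pathway, which is set largely at the protein level.

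Standard OPC libraries held 1356079 to 2797513 counts and mild-hypo-OPC libraries 4111669 to 9022324, so depth moved with the condition and cannot be told apart from it. Levels are given as depth-scaled counts (CPM) after TMM normalization, with factors of 0.809 to 0.945 for standard OPCs and 1.08 to 1.23 for mild-hypo-OPCs. Log2 fold changes are those of mild-hypo-OPCs relative to standard OPCs. A gene was called at an adjusted p under 0.05 in edgeR's quasi-likelihood test across 8938 genes, and all adjusted p-values below are from that fit unless another is named. The markers of the OPC itself were present in all libraries, and the sum of the 6 was 2271 to 2843 CPM in standard OPCs beside 2550 to 2868 CPM in mild-hypo-OPCs, with none of the 6 called. Transcript levels in a bulk sample cannot separate fewer cells of a type from less RNA per cell.

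Mild-hypo-OPCs had lower levels of 3 of the 10 core genes, and these were Gabarap, Gabarapl2 and Map1lc3b of the ATG8 family. By edgeR 0 of the 10 were called higher, with 1 (Ulk1) at an unadjusted p under 0.05, and DESeq2 called 1 and limma-voom 0. Among all genes tested, 17.0% were called lower, 7.0% higher and 24.0% in either direction. At an unadjusted p under 0.05 by edgeR, 1200 of all 8938 genes were higher and 2043 lower. The median log2 fold change of the 10 genes was -0.17, beside -0.003 for all genes tested. All 5 ATG8 genes had a log2 fold change below 0 (median -0.33). Scaled by library size only, Gabarap, Gabarapl1 and Map1lc3a were above 0, though below the median of all genes, which was then 0.43. Gabarapl1 and Map1lc3a were also above 0 with log2 total count as a covariate or with a trend on gene span removed. The other 5 members had a median of 0.09 and no call by edgeR.

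**Figure D1:**
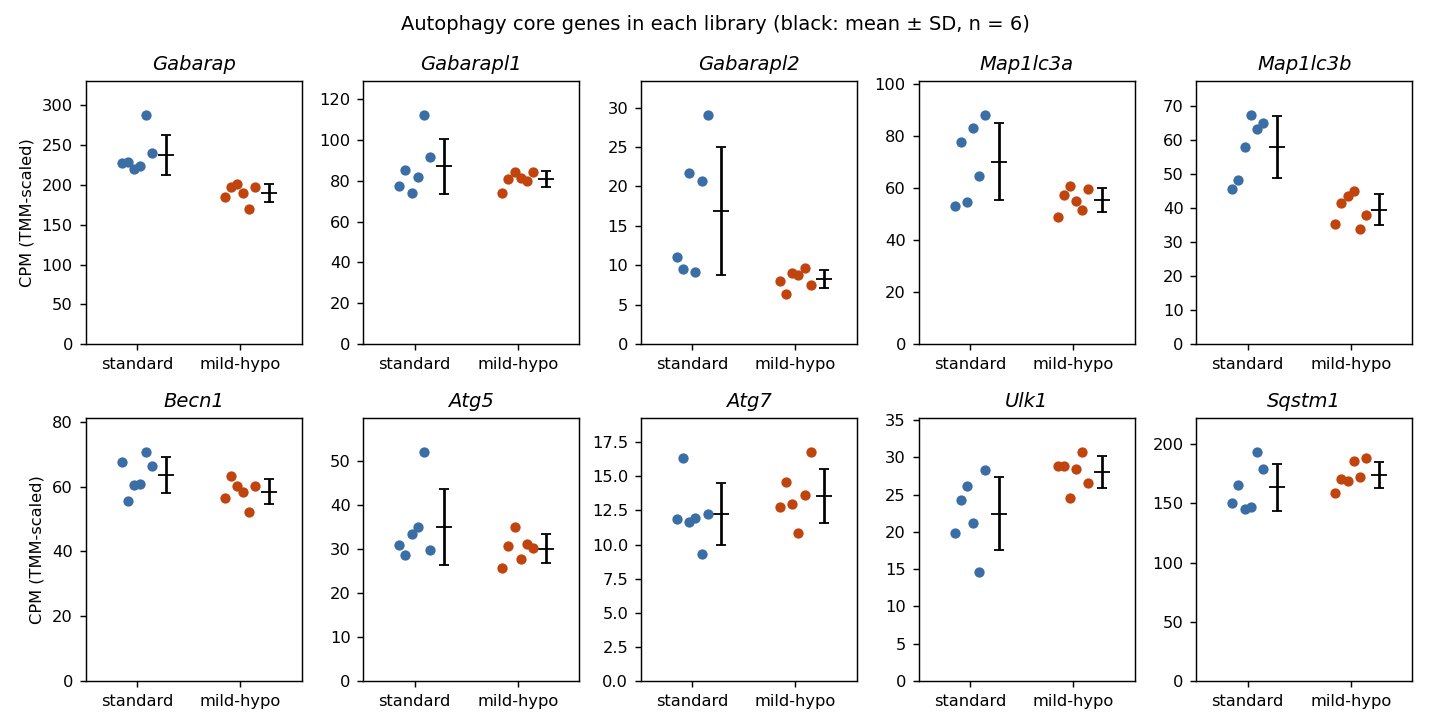
Level of each core gene in every library, in CPM after TMM scaling from 0 on each vertical axis, with blue points for the 6 standard OPC libraries and orange points for the 6 mild-hypo-OPC libraries; black marks show the mean ± SD. The groups do not overlap for Gabarap and Map1lc3b and overlap for the other 8 genes.

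Gabarap (ENSRNOG00000017417), which gives its name to its branch of the family, had the highest counts of the ATG8 rows. In mild-hypo-OPCs its level was 169 CPM in the lowest library, 194 CPM at the median and 201 CPM in the highest. The corresponding values in standard OPCs were 220, 228 and 287 CPM. Every mild-hypo-OPC library thus lay below every standard OPC library, which was the case for 5.4% of all genes tested. The reverse, every mild-hypo-OPC library above every standard OPC library, was seen in 2.94% of genes and in 0 of the 10 members. Mean levels were 238 ± 25.2 CPM in standard OPCs and 190 ± 11.7 CPM in mild-hypo-OPCs (SD, n = 6 each), and the log2 fold change was -0.33 with a standard error of 0.08 (adjusted p = 0.0061). The call held without any single library, including standard OPC replicate 5, the library with the 287 CPM (log2 fold change -0.27, adjusted p = 0.0132).

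Map1lc3b (ENSRNOG00000017905) encodes LC3B, the ATG8 protein most often used to mark autophagosomes. Its level ranged from 33.7 to 44.9 CPM in mild-hypo-OPCs (median 39.7 CPM) and from 45.5 to 67.2 CPM in standard OPCs (median 60.6 CPM). The 2 ranges did not overlap, although the highest mild-hypo-OPC library and the lowest standard OPC library were close. The log2 fold change was -0.53 (standard error 0.11, adjusted p = 0.00204), a fall by 30.7%. A further row named Map1lc3b2, which RefSeq lists as a pseudogene, held at most 27 counts in any library. With its counts added to Map1lc3b the log2 fold change was still -0.53.

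Gabarapl2 (ENSRNOG00000051416), also known as GATE-16, had the largest change of the 10 genes and few counts. Libraries of standard OPCs held 10 to 39 counts of it (median 30.0) and those of mild-hypo-OPCs 36 to 77 (median 49.5). In CPM the mild-hypo-OPC libraries ran from 6.39 to 9.62 (median 8.42) and the standard OPC libraries from 9.2 to 29.0 (median 15.9). The standard OPC libraries were spread over a wide range, with replicates 3, 5 and 6 at 20.7 CPM or more and replicates 1, 2 and 4 between 9.2 and 11.1 CPM. The log2 fold change was -0.99 (standard error 0.23, 95% interval -1.48 to -0.51, adjusted p = 0.00446). It passed the filter through libraries of both groups, since its unscaled CPM exceeded 10 in 3 mild-hypo-OPC and in 4 standard OPC libraries.

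A neighbouring entry of the same family bears on these values. The row named Gabarapl3, a pseudogene in RefSeq, held 196 to 279 counts in standard OPC libraries and 406 to 679 in those of mild-hypo-OPCs, far more than the Gabarapl2 row. It was called lower as well, by -0.87 on the log2 scale (standard error 0.13, adjusted p = 0.000182) and with no overlap between the groups. Which gene it was copied from is not given in the sources used here, and reads shared with a near-identical gene cannot be assigned from the table. Adding its counts to Gabarapl2 gave a log2 fold change of -0.88 (adjusted p = 0.000139), and adding them to Gabarap gave -0.51 (adjusted p = 0.000387). Added to Gabarapl1, they turned a gene that was not called into one that was (log2 fold change -0.54, adjusted p = 0.000879). These additions were chosen after the data had been seen. The values of Gabarap, Gabarapl1 and Gabarapl2 are therefore uncertain to the extent that their reads fell on this row.

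Gabarapl1 (ENSRNOG00000053362) by its own row differed little between the groups. Its level was 74.1 to 84.4 CPM in mild-hypo-OPCs (median 81.1 CPM) and 74.0 to 112 CPM in standard OPCs (median 83.5 CPM). The groups overlapped, with standard OPC replicates 2, 5 and 6 above all mild-hypo-OPC libraries and replicate 3 just below them. The log2 fold change was -0.10 (standard error 0.09, 95% interval -0.29 to 0.09, adjusted p = 0.454), and without standard OPC replicate 5 it was -0.02.

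Map1lc3a (ENSRNOG00000025443) encodes LC3A, a close relative of LC3B. It ranged from 48.9 to 60.5 CPM in mild-hypo-OPCs (median 56.1 CPM) and from 53.1 to 87.8 CPM in standard OPCs (median 71.1 CPM). In 4 of the 6 standard OPC libraries it was above every mild-hypo-OPC library, and in replicates 1 and 3 it was not. The log2 fold change of -0.32 (standard error 0.12) just missed the threshold (adjusted p = 0.0549). It passed without standard OPC replicate 1 (-0.39, adjusted p = 0.0116) or without replicate 3 (-0.38, adjusted p = 0.0291). In the other 10 fits that left out 1 library it was not called, with the smallest differences without standard OPC replicate 6 (-0.24, adjusted p = 0.148) and without mild-hypo-OPC replicate 1 (-0.25, adjusted p = 0.156). Summed over the 5 ATG8 rows, the level was 344 to 398 CPM in mild-hypo-OPCs (median 382 CPM) and 415 to 548 CPM in standard OPCs (median 457 CPM). Gabarap made the largest contribution to this sum, which is given as a description.

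**Figure D2:**
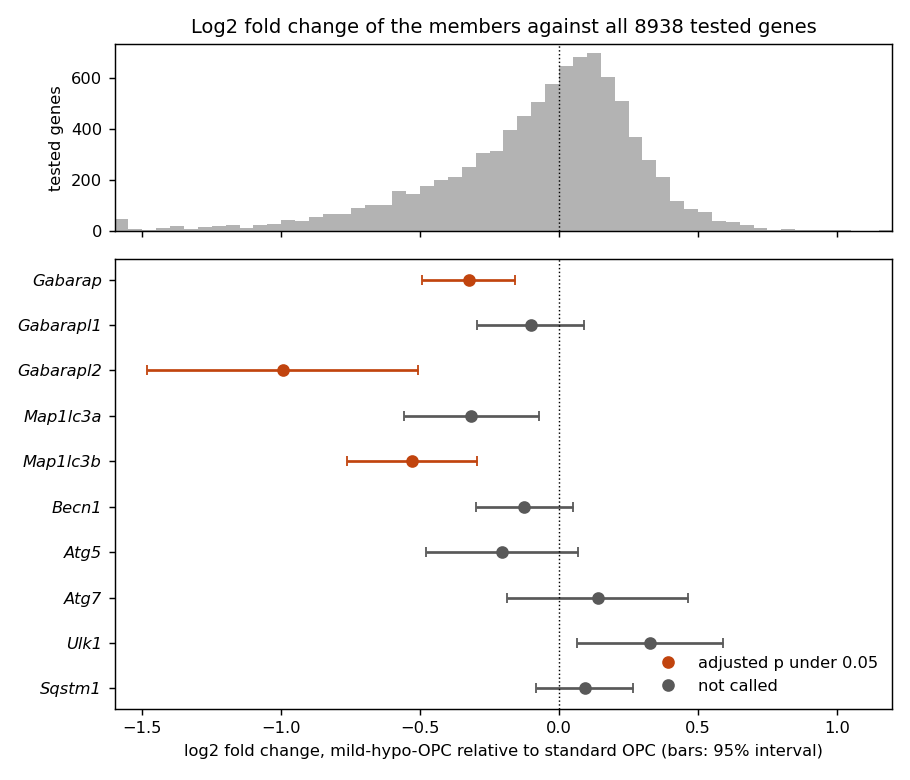
Log2 fold change of each core gene with its 95% interval (lower panel; orange, adjusted p under 0.05) under a histogram of the log2 fold changes of all 8938 genes tested, in which values beyond -1.6 and 1.2 are drawn in the end bins. The 3 called genes lie in the lower tail between -0.99 and -0.33, and the intervals of the other members except Map1lc3a and Ulk1 include 0.

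The core genes that act before the ATG8 proteins were not called. Ulk1 (ENSRNOG00000037505), the initiating kinase, had 24.6 to 30.7 CPM in mild-hypo-OPCs (median 28.6 CPM) and 14.7 to 28.2 CPM in standard OPCs (median 22.7 CPM). In 4 mild-hypo-OPC libraries its level was above every standard OPC library. Its log2 fold change was 0.33 (standard error 0.13, 95% interval 0.06 to 0.59, adjusted p = 0.0651). DESeq2 called it (0.34, adjusted p = 0.0429), as did edgeR after upper-quartile scaling (0.40, adjusted p = 0.026). The same held without mild-hypo-OPC replicate 3 (adjusted p = 0.0409), without mild-hypo-OPC replicate 6 (adjusted p = 0.0478) and without standard OPC replicate 6 (adjusted p = 0.0386). Its call therefore depended on the tool, the scaling and single libraries.

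Becn1 (ENSRNOG00000020513), a subunit of the lipid kinase complex, had 52.1 to 63.2 CPM in mild-hypo-OPCs (median 59.2 CPM) and 55.5 to 70.6 CPM in standard OPCs (median 63.6 CPM). The groups overlapped, and the log2 fold change was -0.13 (standard error 0.08, 95% interval -0.30 to 0.05, adjusted p = 0.296).

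Atg5 (ENSRNOG00000000322) and Atg7 (ENSRNOG00000007486), of the conjugation machinery, differed by amounts within the spread between libraries. Atg5 had 25.6 to 35.0 CPM in mild-hypo-OPCs (median 30.5 CPM) and 28.5 to 52.0 CPM in standard OPCs (median 32.2 CPM), and its log2 fold change was -0.21 (standard error 0.13, 95% interval -0.48 to 0.07, adjusted p = 0.274). The high end of its standard OPC range was replicate 5 alone, and without that library the log2 fold change was -0.06. Atg7, which encodes the E1-like enzyme of both conjugation systems, had 10.9 to 16.8 CPM in mild-hypo-OPCs (median 13.3 CPM) and 9.33 to 16.4 CPM in standard OPCs (median 11.9 CPM). Its log2 fold change was 0.14 (standard error 0.16, 95% interval -0.19 to 0.46, adjusted p = 0.556). Standard OPC libraries held only 13 to 31 counts of Atg7.

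Sqstm1 (ENSRNOG00000003147), the cargo receptor p62, differed little between the groups. Its range was 159 to 188 CPM in mild-hypo-OPCs (median 172 CPM) and 145 to 193 CPM in standard OPCs (median 158 CPM). In standard OPCs 3 libraries lay below all mild-hypo-OPC libraries and 1 lay above them all. The log2 fold change was 0.09 (standard error 0.08, 95% interval -0.08 to 0.27, adjusted p = 0.454).

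The sign of several of these log2 fold changes depended on the scaling. With library size as the only scaling, the median over all genes became 0.43 (log2), and values should be read relative to that shift. Under it Gabarap was 0.11, Map1lc3b -0.09 and Map1lc3a 0.12, none of them called, while Gabarapl2 stayed lower (-0.57, adjusted p = 0.0316). Gabarapl1 (0.33), Becn1 (0.31), Atg7 (0.57), Ulk1 (0.76) and Sqstm1 (0.53) were then called higher (edgeR, adjusted p from 4.79e-05 for Ulk1 to 0.0142 for Becn1). Under the same scaling 5515 of all 8938 genes were called higher and 405 lower, so most tested genes were called higher. With log2 total count as a covariate, edgeR called 0 of the 10 genes, and 1 (Sqstm1, 0.36) had an unadjusted p under 0.05. Among all 8938 genes, 217 were higher and 488 lower at that unadjusted threshold. The 3 genes called without the covariate were then at -0.02 for Map1lc3b (adjusted p = 0.998), -0.20 for Gabarap (adjusted p = 0.865) and -0.60 for Gabarapl2 (adjusted p = 0.857).

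**Figure D3:**
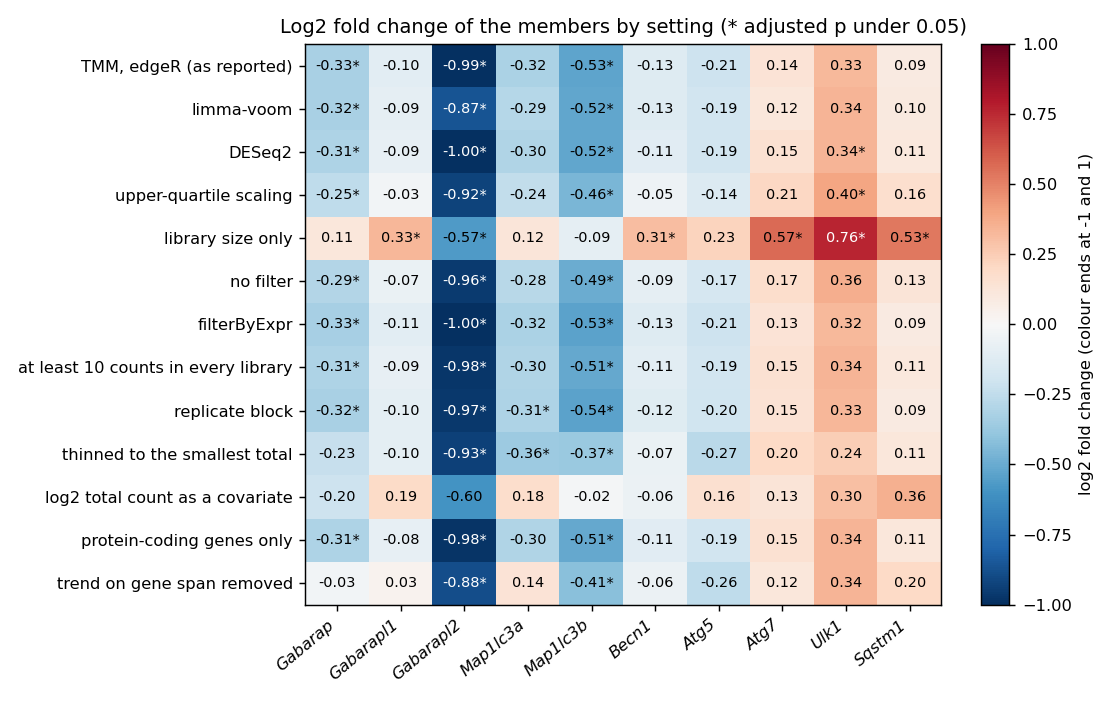
Log2 fold change of each core gene (columns) under each setting (rows), with red for higher and blue for lower in mild-hypo-OPCs and an asterisk for an adjusted p under 0.05. Gabarapl2 and Map1lc3b are negative in every row, Map1lc3b only slightly with library size only (-0.09) or the total-count covariate (-0.02). Scaling by library size only shifts all 10 genes upward.

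Ratios of member pairs within a library do not depend on the scaling factor, and 6 pairs were compared between the groups by a two-sided exact permutation test. Sqstm1 relative to Map1lc3b was higher in mild-hypo-OPCs, with log2 ratios of 1.96 to 2.35 beside 1.13 to 1.78 in standard OPCs (n = 6 each). The difference of 0.64, a ratio 1.56-fold as high, had no overlap between the groups (exact permutation p = 0.002165, the smallest this design allows, adjusted p = 0.00649). Gabarapl1 relative to Gabarap was also higher, by 0.22 on the log2 scale, and again the groups did not overlap (exact permutation p = 0.002165, adjusted p = 0.00649). This ratio leaves out the reads on the Gabarapl3 row. With them added to Gabarapl1, the log2 fold changes were -0.54 for Gabarapl1 and -0.33 for Gabarap, the opposite order. The direction of this ratio is therefore uncertain to the extent that Gabarapl1 reads fell on that row. Ulk1 relative to Becn1 was higher by 0.46 with overlapping ranges (exact permutation p = 0.0195, adjusted p = 0.039). This last call was lost in 8 of the 12 tests that each left out 1 library (adjusted p up to 0.0779), among them standard OPC replicate 5, without which the difference was 0.31.

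The remaining pairs were not called. Gabarapl2 relative to Gabarap was lower by 0.60 (exact permutation p = 0.0736, adjusted p = 0.11), Map1lc3a relative to Map1lc3b higher by 0.23 (exact permutation p = 0.0974, adjusted p = 0.117), and Atg7 relative to Atg5 higher by 0.33 (exact permutation p = 0.188, adjusted p = 0.188). Without standard OPC replicate 2 all 3 passed the threshold, with differences of -0.72, 0.31 and 0.47 (exact permutation, adjusted p = 0.0433, 0.026 and 0.0312). In 1 random thinning of every library to the smallest total, the 3 called ratios kept their direction and lost the call. Sqstm1 to Map1lc3b was then higher by 0.49 (exact permutation, adjusted p = 0.052), Gabarapl1 to Gabarap by 0.12 (adjusted p = 0.343) and Ulk1 to Becn1 by 0.30 (adjusted p = 0.24).

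The change of a gene also moved with its length on the genome, a property that differs among the members. Among tested genes with a RefSeq span, the quintile with the shortest spans (257 to 8497 bp) had a median log2 fold change of -0.26, and 37.3% of it was called lower. In the quintile with the longest spans (76540 bp and more) the median was 0.06, and 5.56% was called lower. Gabarap (3323 bp) and Map1lc3a (1647 bp) are in the shortest quintile, and their log2 fold changes of -0.33 and -0.32 were near its median. Gabarapl1, Gabarapl2, Map1lc3b, Becn1 and Sqstm1, with spans from 9143 to 15354 bp, are in the next quintile, whose median was -0.05. Of these, Gabarapl2 and Map1lc3b lay well below that median. With the trend on span removed, a setting chosen after the data had been seen, Gabarap was -0.03 (adjusted p = 0.85) and Map1lc3a 0.14 (adjusted p = 0.428). Gabarapl2 (-0.88, adjusted p = 0.00875) and Map1lc3b (-0.41, adjusted p = 0.011) kept the call. The same difference in span separates Gabarapl1 from Gabarap, the pair whose ratio was called. A span holds introns and is not the length of the transcript, and its part in the results was not tested further.

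**Figure D4:**
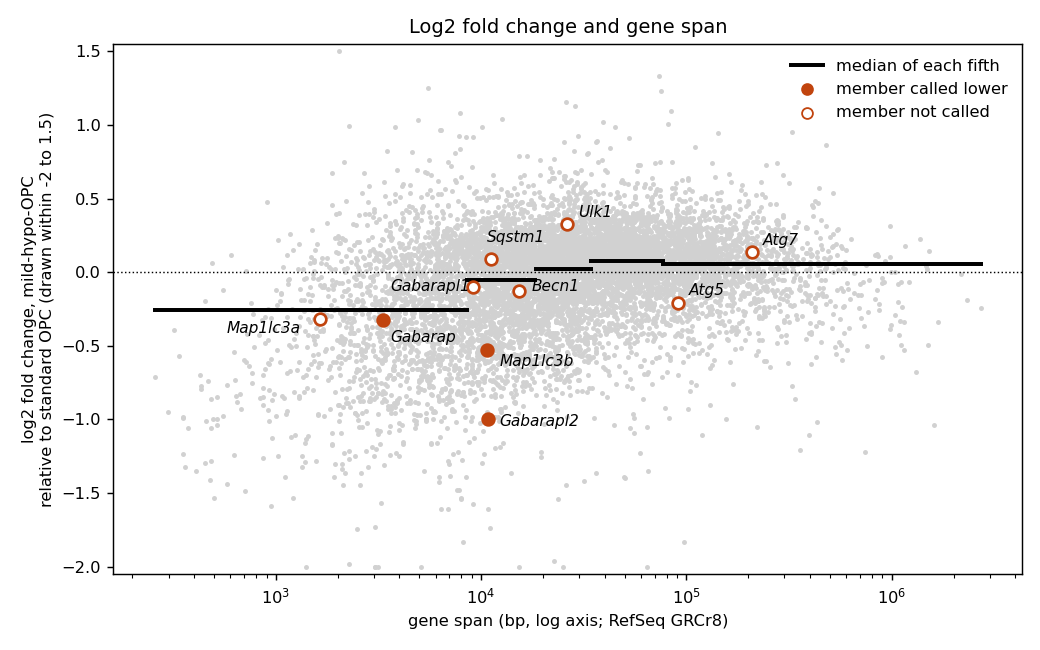
Log2 fold change against gene span in bp on a log axis for the tested genes with a RefSeq span (grey) and the 10 core genes (orange, filled when called lower), with a black line at the median of each quintile of span. The line rises from -0.26 in the shortest quintile to 0.08 in the fourth, and Gabarapl2 and Map1lc3b lie below the line of their quintile.

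Promoter sequence is shown for the called genes with a match and for Atg5, to set the changes beside a core hypoxia element. RefSeq promoter windows (GRCr8) were found for 8 of the 10 genes, and Map1lc3a and Becn1 had no entry. The 250 bases before each start were searched on both strands for ACGTG or GCGTG, the core bound by hypoxia-inducible factors, and for the E-box CACGTG, which contains that core and is bound by TFEB and related factors. The hypoxia core occurred in 3 of the 8 members, Gabarapl2, Map1lc3b and Atg5, beside 36.7% of all 33469 promoters. The E-box occurred in Atg5 only, beside 5.59% of all promoters. The 150 bases before the start are given 5′ to 3′, with the matches in capitals. Each lies on the plus strand, at chr19:56819676-56819825 for Gabarapl2, chr19:66574445-66574594 for Map1lc3b and chr20:49380685-49380834 for Atg5.
Gabarapl2: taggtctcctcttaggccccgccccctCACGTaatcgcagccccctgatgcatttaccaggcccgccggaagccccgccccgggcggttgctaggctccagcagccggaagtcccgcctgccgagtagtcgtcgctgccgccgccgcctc
Map1lc3b: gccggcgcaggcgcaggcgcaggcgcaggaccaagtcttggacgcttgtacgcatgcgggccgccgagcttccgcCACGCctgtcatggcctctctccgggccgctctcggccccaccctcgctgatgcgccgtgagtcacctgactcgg
Atg5: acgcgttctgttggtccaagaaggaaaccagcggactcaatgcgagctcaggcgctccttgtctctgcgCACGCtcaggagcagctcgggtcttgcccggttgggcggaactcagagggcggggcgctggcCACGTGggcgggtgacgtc
Gabarapl2 and Map1lc3b each hold 1 match read on the opposite strand. Atg5 holds 3, of which 2 overlap within the E-box. The genes with a match were lower (Gabarapl2 and Map1lc3b) or not called (Atg5), and Gabarap, which was called lower, held none. A match is a short run of letters and not a measured binding site.

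The rest of the pathway was read from lists of 60 further autophagy genes grouped by role, of which 57 had a row and 52 were tested. Of these 52, 3 were called higher, 2 lower and 47 neither, and their median log2 fold change was 0.04. Neither direction exceeded the rate among all genes. In the initiation complex, Atg13, the regulatory subunit beside ULK1, was higher, with 56.5 ± 1.6 CPM (SD, n = 6) against 44.3 ± 8.09 CPM (SD, n = 6) in standard OPCs (log2 fold change 0.33, standard error 0.10, adjusted p = 0.0233). The other 4 tested genes of that complex, Ulk1 among them, were not called. In the nucleation group Rubcn, which encodes the inhibitor Rubicon, was higher by 0.37 (standard error 0.12, adjusted p = 0.0282), and the 6 others including Becn1 were not called.

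Among the conjugation enzymes 1 of 8 tested genes was called. Atg3, the E2-like enzyme that transfers ATG8 proteins to lipid, was lower, with 46.1 ± 2.16 CPM beside 57.0 ± 6.7 CPM in standard OPCs (SD, n = 6 each), a difference of -0.31 on the log2 scale (standard error 0.09, adjusted p = 0.0143). Its groups did not overlap. Atg4d and Atg4c, 2 of the proteases that process ATG8 proteins, had log2 fold changes of -0.39 and -0.41 and were not called (adjusted p = 0.0618 and 0.216). Atg4b, a further protease of this kind, was at 0.02 (adjusted p = 0.916). These ATG4 genes were named after their values had been seen.

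In the group that acts at fusion with the lysosome, 13 genes were tested and the calls went both ways. Rab7a, the GTPase of late endosomes, was lower by 0.28 on the log2 scale (log2 fold change -0.28, standard error 0.08, adjusted p = 0.0107), with 247 ± 11.1 CPM (SD, n = 6) against 299 ± 28.2 CPM (SD, n = 6) and no overlap. Vps39, a subunit of the HOPS tethering complex, was higher by 0.30 (standard error 0.10, adjusted p = 0.0268). edgeR called no gene among the 9 tested genes of membrane supply, the 10 cargo receptors including Sqstm1 and the 5 transcriptional regulators. The lowest p-values there belonged to Wdr45 (-0.43, adjusted p = 0.0578), Tex264 (-0.28, adjusted p = 0.0544) and Zkscan3 (-0.29, adjusted p = 0.0671). At an unadjusted p under 0.05 the 3 groups held 2 genes (Atg9a and Wdr45), 3 genes (Tex264, Ccpg1 and Wdfy3) and 2 genes (Tfeb and Zkscan3). These counts stand beside 1200 genes higher and 2043 lower at that threshold among all 8938 tested. DESeq2 called 1 gene of membrane supply and none of the other 2 groups, and limma-voom called none.

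**Figure D5:**
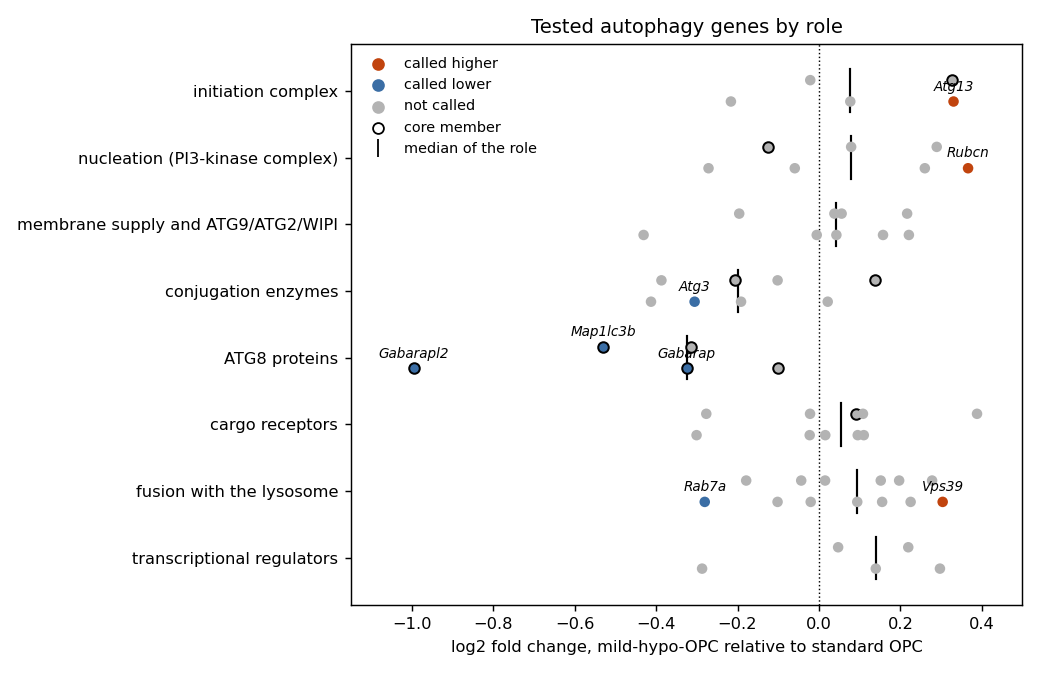
Log2 fold change of the 62 tested autophagy genes by role, with orange for called higher, blue for called lower, grey for not called, a black ring for the core members and a black bar at the median of each role. The ATG8 proteins are the group with all points below 0 (median -0.33) under TMM scaling, and the medians of the other roles lie between -0.20 and 0.14. Scaled by library size only, 3 of the ATG8 proteins are above 0, where the median of all genes is 0.43.

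Each of these 5 calls was lost when single libraries were left out. Atg13 was not called without standard OPC replicate 3 or 4 (adjusted p = 0.0644 and 0.0535), nor Rubcn without standard OPC replicate 3 or 5 (0.0781 and 0.0728). Vps39 was not called without standard OPC replicate 4 or 5 (adjusted p = 0.0605 and 0.0652). Atg3 was not called without mild-hypo-OPC replicate 2 or 5 (adjusted p = 0.052 and 0.0516), nor Rab7a without mild-hypo-OPC replicate 1 or 5 (0.0555 and 0.0516).

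Across the 12 libraries, after subtraction of each group's mean, many of the members' largest deviations were in standard OPC replicate 5. That library had the highest level of its group for 5 members (Gabarap, Gabarapl1, Becn1, Atg5 and Sqstm1) and the lowest for Atg7 and Ulk1. Gabarap and Gabarapl1 had a Pearson r of 0.86 over the 12 libraries and 0.58 without that library. Ulk1 and Atg5 had an r of -0.79, which was -0.39 without it. The tested genes whose deviations were most like the mean of the ATG8 members were Ajm1 (r = 0.98), Tusc2 and Psmd6 (0.96 each), Rhoc (0.96) and Tmem208 (0.955). These points share libraries and depth, and the values are a description.

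Some markers of other cell states differed between the groups, and their counts stand beside 7.0% called higher and 17.0% called lower among all genes. The summed level of 10 oligodendrocyte markers was 16400 to 17230 CPM in mild-hypo-OPCs and 11390 to 16000 CPM in standard OPCs, with 6 of the 10 called higher. Mbp was the largest part of that sum, with a mean of 7132 CPM in mild-hypo-OPCs and 5851 CPM in standard OPCs. It was not called (edgeR, adjusted p = 0.0555), nor were Bcas1, Mog and Enpp6. The 8 microglial markers summed to 42.2 to 60.0 CPM and 14.7 to 41.2 CPM, with 2 of the 3 tested called higher. The 6 neuronal markers summed to 257 to 286 CPM and 165 to 221 CPM (1 of 4 tested called higher), and the 7 astrocyte markers to 628 to 751 CPM and 577 to 644 CPM (of 6 tested, Aqp4 and Slc1a3 were called higher and S100b lower). No mesenchymal or endothelial marker reached the filter, and Lum was at 0 in every library. The part of these cell states in the levels of the autophagy genes was not tested.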

How the data were processed

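Whole-number counts per Ensembl gene were deposited by the authors, without normalization. Per the labels and the methods, reads had been trimmed with Trimmomatic 0.36, aligned with STAR 2.7.9a to mRatBN7.2 and quantified with RSEM 1.3.3. How the estimates were made whole is not given in the sources used here. Strand-specific libraries had been prepared from 200 ng of total RNA.

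Rows whose unscaled CPM passed 10 somewhere among the 12 libraries entered the tests (8938 of 30562). Counts were scaled by TMM factors and compared between 6 and 6 libraries with edgeR 4.0.16 (R 4.3.3, glmQLFit and glmQLFTest, group as the only term, Benjamini-Hochberg adjustment). The standard error is the one implied by the F statistic, and intervals are 95%. limma 3.58.1 and DESeq2 1.42.0 were alternatives. Log2 ratios of pairs used counts plus 0.5 and SciPy 1.17.1. Fits and tests were tested on simulated data. In simulated counts edgeR recovered 96 of 100 genes changed by 1 on the log2 scale and 51 of 100 changed by 0.5. It made 13 false calls in the 8938 genes run, and a gene not called may thus have a change of 0.5 that was missed. The simulated libraries were independent, with 200 genes changed equally in both directions and no trend on gene span. These rates may therefore not hold for the real libraries. Gene spans and promoters came from RefSeq (GRCr8), matched by symbol, and spans covered 95.59% of tested genes.

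The members, lists and tests were chosen with earlier results of these data known. Named genes were the members, the called pathway genes, the gene of lowest p in a role without a call, the 5 genes most like the ATG8 mean, rows whose symbol extends a member's, and the markers. The labels give no batch. Retreg1, Atg4a, Calcoco2 and Cldn5 were not analysed here.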

Additional observations from a re-analysis of the deposited data

Results flagged for a closer look

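In 38 groups of 6 libraries, the gap of the extreme library to its neighbour was compared with the range of the group on the log2 CPM scale, a check that chance passes in about 5% of groups. In standard OPC replicate 5 this share of the range was 0.663 for Gabarap (287 CPM), 0.661 for Atg5 (52.0 CPM) and 0.637 for Atg3 (70.0 CPM), above Dixon's 95% critical value and each at the upper end. Vps39 was low in mild-hypo-OPC replicate 4 (0.638, 51.4 CPM). Rubcn was low in mild-hypo-OPC replicate 6 (0.744, 43.5 CPM).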

How the results depend on the processing

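Replicate numbers showed no clear pairing of the samples: same-numbered libraries correlated above 0.1 in 2 of 6 pairs, and 3 of 12 libraries correlated best with their own number. This check cannot tell whether libraries share a culture. With the replicate block, 4 members were called, Map1lc3a being added (-0.31, adjusted p = 0.0423). Under the block the log2 ratios of 0.22 (Gabarapl1 to Gabarap), 0.46 (Ulk1 to Becn1) and 0.64 (Sqstm1 to Map1lc3b) did not reach the threshold. With so few pairs of libraries, no single ratio could have passed it alone. Thinning gave 0.12, 0.30 and 0.49 for these ratios, none called, and left 1 pathway gene lower, as did no filter.

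Scaling by library size only gave 5515 genes higher and 405 lower over all genes, 5 members higher and 1 lower, and 39 other pathway genes higher and 0 lower (0 at an unadjusted p under 0.05). It turned Gabarap (0.11), Gabarapl1 (0.33), Map1lc3a (0.12), Becn1 (0.31), Atg5 (0.23), Rab7a (0.16), Atg3 (0.12), Tex264 (0.16) and Zkscan3 (0.14) above 0. With log2 total count as a covariate, edgeR called 0 genes higher (217 at an unadjusted p under 0.05) and 43 lower, with 0 members and 0 other pathway genes called in either direction, and Gabarapl1 (0.19), Map1lc3a (0.18), Atg5 (0.16) and Tex264 (0.12) were above 0. Total counts did not overlap between the groups. Upper-quartile scaling gave 1136 genes, 1 member and 6 other pathway genes higher, and DESeq2 called 1 member higher. With the span trend removed, 952 genes were lower, Gabarapl1 was 0.033 and Map1lc3a 0.14. The causes were not tested.

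Without 1 library at a time, 0 to 1 members were called higher and 3 to 4 lower, 436 to 823 genes higher and 1165 to 1664 lower, and 1 to 4 other pathway genes higher and 0 to 4 lower. The log2 ratios ranged from 0.20 to 0.24 (Gabarapl1 to Gabarap), 0.57 to 0.70 (Sqstm1 to Map1lc3b), 0.31 to 0.53 (Ulk1 to Becn1), -0.72 to -0.42 (Gabarapl2 to Gabarap), 0.16 to 0.31 (Map1lc3a to Map1lc3b) and 0.14 to 0.47 (Atg7 to Atg5). Thinning ended the call of Gabarap (-0.23, adjusted p = 0.11) and added that of Map1lc3a (-0.36, adjusted p = 0.0474). The planned adjustment for protein length was not run, since no protein table was used here, and gene span was used instead. Counts of 10 to 39 per standard OPC library limit Gabarapl2 and Atg7 most.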
